A study of Mus musculus with 2 samples.

Results

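The Toll-like receptor family of the mouse was taken as 10 genes, Tlr1 to Tlr9 and Tlr13, and every probe that the platform annotation assigns to one of them was used. These were 15 of the 45281 probes of the array, and the 10 genes were among 19057 genes with a named probe. Osteoclasts, the multinucleated cells that resorb bone, were set against the macrophages from which they are made, by total RNA hybridised to Illumina bead arrays on which a probe's brightness reports its transcript. The osteoclasts came from marrow of C57BL/6J mice aged 8 to 12 weeks, plated for 4 days with macrophage colony-stimulating factor (M-CSF) at 25 ng/ml and then kept for 3 days with M-CSF at 25 ng/ml and soluble RANKL, the inducer of osteoclast formation, at 30 ng/ml. The macrophages came from the same strain, tissue and age range and were grown with M-CSF at 25 ng/ml, with the same 4 days listed. Each group was 1 sample of 3 mice on 1 array, so a difference is between these 2 samples, has no replicate error and carries no p-value. The cultures started from whole marrow and the labels name no sort, so other marrow cells may be present. They do not say whether the macrophages were taken before or after the last 3 days, and they place the arrays on different chips. Neither chip nor culture time can be told apart from the cell type.

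Toll-like receptors are single-pass membrane proteins that recognise conserved molecules of microbes and call inflammatory genes through adaptor proteins. Tlr1, Tlr2, Tlr4, Tlr5 and Tlr6 act at the cell surface on lipids and proteins of the microbial envelope, while Tlr3, Tlr7, Tlr8, Tlr9 and Tlr13 act in endosomes on nucleic acids. Macrophages are a main site of these receptors, and osteoclast precursors carry them too.

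The probes of the osteoclast array were brighter as a whole. Over the probes that both arrays detected, its median corrected intensity plus offset was 1.76 times that of the macrophage array, so raw intensities are given beside differences that were taken after quantile normalization. Differences are osteoclasts minus macrophages in log2(corrected intensity + 16), a scale that understates differences of dim genes, and where a gene has several probes the brightest on average stands for it. A probe was called detected where background alone would reach its intensity with a probability under 0.01, a limit that was an intensity of 7.24 on the osteoclast array and 4.88 on the macrophage array. At least 1 array detected 13008 of the genes, and their median difference was -0.047. Markers of the labelled cell types were set against the labels. Of the detected markers, 9 of 11 for osteoclasts were at least 2-fold higher in osteoclasts and 9 of 10 for macrophages at least 2-fold lower there. Among the 11 osteoclast markers 4 were detected on the osteoclast array only, so the sign of these 4 was nearly set by that rule. The exception by absence was Atp6v0d2, an osteoclast proton pump subunit detected on neither array. Short of 2-fold were Nfatc1 (-0.02) and Itgb3 (0.71) among the osteoclast markers and Msr1 (0.37) among the macrophage markers. Other probes of Nfatc1 detected on both arrays ranged from -0.72 to 3.15. These genes were named after their values were seen. Among all detected genes 11.5% were at least 2-fold higher in osteoclasts and 8.2% at least 2-fold lower.

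All 10 receptors had a lower normalized signal in osteoclasts than in macrophages, and 5 of them were at least 2-fold lower. These were Tlr2 and its partners Tlr1 and Tlr6, which together read microbial lipopeptides, and Tlr7 and Tlr8, the receptors for single-stranded RNA. None (0 of 10) was 2-fold higher. Tlr3 and Tlr9 were detected on the macrophage array only and entered through it, so their sign was nearly set by that rule. The count of 2-fold lower receptors was 8 without background correction and 8 with median scaling. Over all detected genes the 2-fold lower count rose as well, from 1067 of 13008 to 2072 and 1750. The setting without background correction also has no offset and raises intensities below the detection limit to that limit. Without any normalization Tlr4 and Tlr13 were above 0, but the median of all detected genes was 0.60 there. In the main setting 8.2% of all detected genes were at least 2-fold lower, 11.5% were at least 2-fold higher and 52.5% had a difference below 0. The family median was -1.31 (2.47-fold lower), or -1.24 with receptors detected on 1 array at their bound; at bounds, 5 receptors and 7.76% of all detected genes were 2-fold lower. The other receptors, Tlr3, Tlr4, Tlr5, Tlr9 and Tlr13, lay within 2-fold, and 3 of these were close to background on both arrays. Fewer macrophages and less RNA per macrophage cannot be told apart in such samples.

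**Figure D1:**
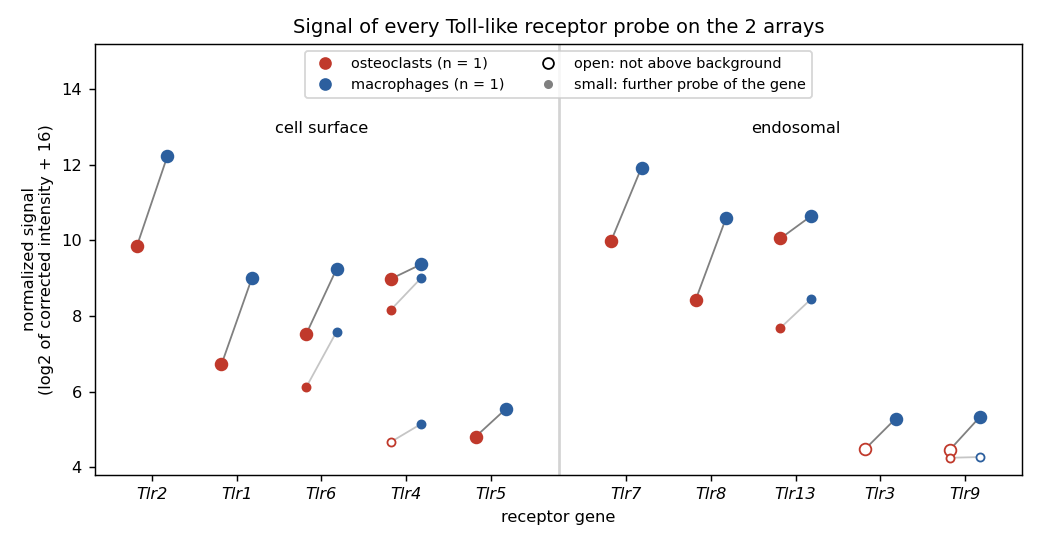
Normalized signal (log2 of corrected intensity + 16) of all 15 receptor probes, with osteoclasts in red left of macrophages in blue, 1 array each; lines join the values of a probe, small points are further probes of a gene, and open points are not above background. The lines of Tlr2, Tlr1, Tlr6, Tlr7 and Tlr8 are the steepest among the bright receptors, and those of Tlr4 and Tlr13 are flatter.

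Among the surface receptors, Tlr2 differed most. It pairs with Tlr1 or Tlr6 to bind lipoproteins of bacteria and other microbes, and had an intensity of 1193 in osteoclasts, against 3767 in macrophages. The difference was -2.38 (5.20-fold lower), and 1.42% of the 13008 detected genes had a lower one. Tlr1, whose pairing with Tlr2 favours triacylated lipopeptides, had an intensity of 121 in osteoclasts, against 363 in macrophages, a difference of -2.29 (4.89-fold lower). Tlr2 and Tlr1 are each read by a single probe. Tlr6, the partner of Tlr2 for diacylated lipopeptides, had an intensity of 226 in osteoclasts, against 436 in macrophages, at its brighter probe. There the difference was -1.73 (3.32-fold lower). The other probe of Tlr6 gave 68.7 in osteoclasts, against 123 in macrophages, and a difference of -1.48, so both of its probes were past 2-fold. All 4 probes of these 3 genes were detected on both arrays, and the macrophage intensity was the higher one at each. Tlr1 and Tlr6 are close relatives, and whether their probes read one another's transcript was not tested.

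Tlr4, the receptor for lipopolysaccharide of Gram-negative bacteria, was within 2-fold. It had an intensity of 660.3 in osteoclasts, against 475 in macrophages, and a normalized difference of -0.39. The second probe gave 371 in osteoclasts, against 364 in macrophages, and a difference of -0.85. The third was dim, at 6.61 in osteoclasts, where it was not above background, against 10.8 in macrophages. The raw intensity of Tlr4 was thus higher in osteoclasts while its normalized value was lower. Without normalization between arrays the difference was 0.46, beside a median of 0.60 over all detected genes. Of the 13008 detected genes, 30.3% had a lower difference than Tlr4, the largest such share among the 10 receptors. Tlr5, the receptor for flagellin, was dim on both arrays, at 10.2 in osteoclasts, against 19.1 in macrophages, and differed by -0.74.

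Among the endosomal receptors, Tlr8 and Tlr7 differed most. Tlr8, a sensor of RNA breakdown products that is best described in human cells, had an intensity of 450.0 in osteoclasts, against 1170.4 in macrophages. Its difference was -2.17 (4.51-fold lower). Tlr7, the receptor for single-stranded RNA and guanosine, had an intensity of 1310.3 in osteoclasts, against 3078 in macrophages. Its difference was -1.95 (3.85-fold lower). Each is read by 1 probe, detected on both arrays and dimmer in osteoclasts before normalization as well. Among all detected genes, 1.77% had a lower difference than Tlr8 and 2.27% a lower one than Tlr7.

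Tlr13, which recognises bacterial ribosomal RNA and is present in mice but lost in humans, was detected on both arrays at both of its probes and lay within 2-fold. It had an intensity of 1376 in osteoclasts, against 1204 in macrophages, and a difference of -0.59. Its other probe gave 257 in osteoclasts, against 236 in macrophages, and a difference of -0.76. Both probes were thus brighter in osteoclasts before normalization and lower after it. Without normalization the difference of the first was 0.19, beside a median of 0.60 over all detected genes. Tlr13 resembled Tlr4 in this respect, and these were the only members (2 of 10) with a higher raw intensity in osteoclasts.

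Tlr3, the receptor for double-stranded RNA, and Tlr9, the receptor for unmethylated CpG DNA, were dim in macrophages and not above background in osteoclasts. Tlr3 had an intensity of 1.43 in osteoclasts, against 13.5 in macrophages, which makes it at least 1.51-fold lower. Tlr9 had an intensity of 0.805 in osteoclasts, against 14.7 in macrophages, which makes it at least 1.57-fold lower. Here the bound is the macrophage signal over the lowest signal of any detected probe of the osteoclast array, or over the dim probe itself where that is higher. The second probe of Tlr9 was detected on neither array, with intensities of -7.36 in osteoclasts and -4.33 in macrophages. For Tlr3, Tlr5 and Tlr9 the arrays therefore show little more than a faint macrophage signal, and a difference past 2-fold in their transcripts could be hidden by the offset. Without background correction their differences were -1.62 for Tlr3, -1.84 for Tlr5 and -1.74 for Tlr9. That setting has no offset and raises intensities below the detection limit to that limit. Tlr3 and Tlr9 thus enter there at the osteoclast limit of 7.24 and not at a measured value.

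Place of action did not separate the receptors. The surface receptors had a median difference of -1.73 and ranged from -2.38 to -0.39, with 3 of 5 at least 2-fold lower. The endosomal receptors had a median of -0.88 and ranged from -2.17 to -0.59, with 2 of 5 at least 2-fold lower. Among all detected genes 8.2% were at least 2-fold lower. The endosomal range lies inside the surface range, and each set holds both bright receptors that were 3.32- to 5.20-fold lower and bright receptors within 2-fold. The order of the medians rests on the dim endosomal genes Tlr3 and Tlr9. With genes detected on both arrays only, the surface median was -1.73 and the endosomal median -1.95. Without background correction they were -1.86 for surface and -1.74 for endosomal receptors. That endosomal median is the value of Tlr9, whose osteoclast intensity was raised to the detection limit there.

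**Figure D2:**
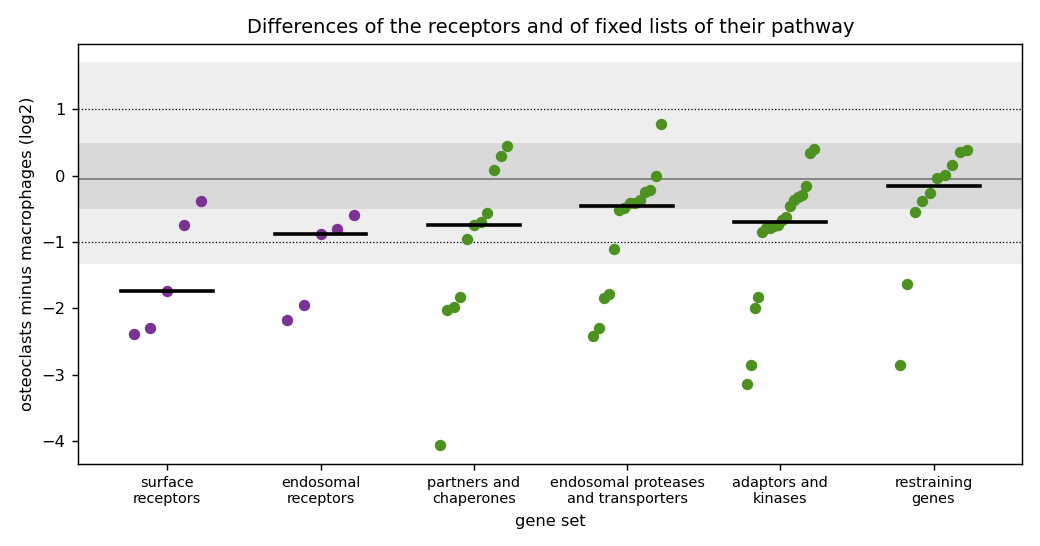
Difference (osteoclasts minus macrophages, log2) of each detected gene in the surface and endosomal receptor sets and in 4 lists of pathway genes; black bars are medians, dotted lines mark 2-fold, the grey bands hold percentiles 5 to 95 (light) and 25 to 75 (dark) of all 13008 detected genes. The 5 lower receptors lie below percentile 5, at -1.31, and the restraining genes centre near the median of all genes.

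The probe-level picture was the same for most members. Of the 15 probes 11 were detected on both arrays, 3 on the macrophage array only and 1 on neither. The 3 probes detected on the macrophage array only passed through the array where they are higher, so their sign was nearly set by that rule. Over all detected genes, counted by gene and not by probe, 52.5% were below 0 and 8.2% at least 2-fold lower. Of the 14 detected probes, 14 had a difference below 0 and 6 were at least 2-fold lower. These 6 were all the probes of Tlr1, Tlr2, Tlr6, Tlr7 and Tlr8. No probe of the other receptors (0 of 8 detected) passed 2-fold. Probes of 1 gene share their transcript and sample and are no replicates.

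The lower receptors include a pair of chromosomal neighbours in either compartment. In RefSeq's annotation of GRCm38.p6, Tlr1 and Tlr6 lie next to each other on chromosome 5 among protein-coding genes, and Tlr8 and Tlr7 on chromosome X. Tlr13 is also on chromosome X, but between Atp7a and Pgk1. Beyond these pairs, Tmsb4x on the far side of Tlr8 differed by -0.42 and Prps2 on the far side of Tlr7 by 0.17. Beside Tlr1, Klf3 differed by -0.68, whereas Fam114a1 beside Tlr6 differed by -1.80, named after its value was seen.

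RefSeq promoter windows, 250 bases before to 50 bases after a transcript start, were matched for 8 of the 10 genes in 10 windows, and those of Tlr8 and Tlr13 are shown because both are X-linked and one was past 2-fold and the other within it; Tlr7, also X-linked, is not among the 8. Printed are the 250 bases before the gene, 5′ to 3′ on the gene's strand, with the hexamer GAGGAA or its complement, the core bound by the myeloid factor PU.1, in capitals.
Tlr8, chrX:167264330-167264579, minus strand: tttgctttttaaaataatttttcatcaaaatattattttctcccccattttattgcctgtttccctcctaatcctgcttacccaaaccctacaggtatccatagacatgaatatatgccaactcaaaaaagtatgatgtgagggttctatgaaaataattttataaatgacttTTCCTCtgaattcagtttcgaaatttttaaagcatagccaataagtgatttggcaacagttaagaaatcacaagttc
Tlr13, chrX:106143025-106143274, plus strand: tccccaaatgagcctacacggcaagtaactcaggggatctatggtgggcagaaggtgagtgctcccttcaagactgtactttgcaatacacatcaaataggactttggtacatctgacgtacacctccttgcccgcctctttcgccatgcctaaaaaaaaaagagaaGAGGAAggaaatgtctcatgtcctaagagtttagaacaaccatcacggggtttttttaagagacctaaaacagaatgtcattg
Counted from the transcript start, the hexamer begins at base -77 in Tlr8 and -83 in Tlr13. Whether it bears on the difference of either receptor was not tested. Over both strands, GAGGAA was in 4 of the 10 receptor windows (Tlr1, Tlr8, Tlr9 and Tlr13) and in 28.3% of all 32851 windows of this length. A match to the kappaB consensus was found in the windows of Tlr2 and Tlr3 and in 8.46% of all windows. The Tlr2 window holds GGGAATTCCC, which overlaps a further match shifted by 1 base. The interferon-stimulated response element GAAANNGAA was found for Tlr6 and Tlr8 (8.56% of all windows), the AP-1 motif TGANTCA for Tlr9 (7.81%) and the E-box CACGTG for Tlr1 (7.15%). Such matches describe letters and not binding.

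Partner proteins of the receptors were measured by a list of 11 genes, all of them detected on at least 1 array. Of these, 4 had a signal at least 2-fold lower in osteoclasts, none (0) a 2-fold higher one, and 7 fell short of 2-fold, beside 8.2% lower and 11.5% higher among all detected genes. The median was -0.74, against -0.047 over all detected genes. It is the value of Hmgb1, which was near background at -1.01 in osteoclasts, against 10.8 in macrophages. With genes detected on 1 array at their bound the median was -0.63, against -0.046 over all genes. With genes detected on both arrays only it was -0.96, against -0.088. Ly86 (MD-1, the partner of the receptor-like protein Cd180) had an intensity of 749 in osteoclasts, against 7501 in macrophages, and was 16.6-fold lower. Cd14, a co-receptor that hands lipids to Tlr4 and Tlr2, had 2495 in osteoclasts, against 6142 in macrophages, and was 4.08-fold lower. Unc93b1, which escorts the nucleic acid receptors to endosomes, had 2951 in osteoclasts, against 7214 in macrophages, and was 3.95-fold lower, with -2.19 at its other probe against -1.98 at the first. Cnpy3, a chaperone that several Toll-like receptors need to leave the endoplasmic reticulum, was 3.54-fold lower at 137 in osteoclasts, against 284 in macrophages. The co-receptors of the same complexes did not all differ alike: Ly96 (MD-2, which binds lipopolysaccharide together with Tlr4) differed by -0.56 and Cd180 by 0.44, both chosen here after their values were seen.

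Of 14 endosomal proteases, nucleases and transporters that serve the nucleic acid receptors, 5 were lower by 2-fold or more and 9 fell short of it in either direction, leaving 0 higher, beside the same 8.2% and 11.5% over all detected genes. The median was -0.45, against -0.047 over all detected genes. The cysteine proteases Ctsh (5.35-fold lower) and Lgmn (3.42-fold lower), which trim lysosomal proteins, were among the lower ones. The exonuclease gene Pld4, whose product degrades ligands of Tlr9 and Tlr7, was 4.92-fold lower, at 1910.1 in osteoclasts, against 5752 in macrophages. Slc15a3, a peptide and histidine transporter of lysosomes, was 3.58-fold lower. The fifth, Rnaset2b, differed by -1.11 and has a near-identical copy, Rnaset2a (-0.22), so its value is uncertain.

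Of 18 detected adaptors and kinases 4 were lower by 2-fold or more, 0 higher, and the remaining 14 closer, beside 8.2% of all detected genes lower and 11.5% higher. The median was -0.70. Without normalization this median was 0.053, beside 0.60 over all detected genes. The lower ones were Ikbke (8.84-fold), a kinase that activates interferon regulatory factors, Irak3 (7.22-fold), an inhibitory member of the IRAK family, Ticam2 (3.99-fold), the adaptor that links Tlr4 to interferon induction, and Peli2 (3.54-fold), a ubiquitin ligase. The call for Peli2 rests on 1 of 2 probes, and the mean of both was -0.84. Of 10 genes known to restrain the pathway, 2 were lower by 2-fold or more, 0 higher, and the remaining 8 closer; the median was -0.15, and the shares over all detected genes are again 8.2% and 11.5%. Irak3 is one of them, and Trim30a (3.10-fold lower), an interferon-inducible gene, is the other. Rnf216 differed by -0.54 and Nlrx1 by 0.39. Without normalization the median of the list was 0.53 and that of the endosomal list 0.23, beside 0.60 over all detected genes.

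Granulocyte markers moved in the same direction as the receptors, most by 2-fold or more. Most B, T and NK cell markers lay within 2-fold, but 5 of 7 B cell and 4 of 4 T and NK cell markers were below 0 too. Over all detected genes 52.5% were below 0. In each of these lists 1 of the genes below 0 was detected on the macrophage array only. Many of these markers were dim, and the scale understates differences of dim genes. The counts below stand beside 8.2% at least 2-fold lower and 11.5% at least 2-fold higher among all detected genes. Summed intensities, here and in the next paragraph, are not normalized, and the osteoclast array was the brighter one as a whole. Granulocytes carry several of these receptors, and 13 of their 14 detected markers were at least 2-fold lower in osteoclasts. Of the 14, 5 were detected on the macrophage array only and entered through it, so the sign of these 5 was nearly set by that rule. The median of the list was -5.83, with a summed intensity of 936 in osteoclasts, against 49799 in macrophages. S100a8 alone had 595 in osteoclasts, against 19536 in macrophages, and S100a9 had 124 in osteoclasts, against 9164 in macrophages. The macrophage list summed to 15267 in osteoclasts, against 35103 in macrophages, with a median of -2.13; its brightest genes were Adgre1 (-1.27) and Csf1r (-1.48). The part of either in the lower receptors was not tested. Of the B cell markers, which matter for Tlr9 and Tlr7, 1 of 7 detected genes was at least 2-fold lower (Cd79b, -2.36). The sums were 1342 in osteoclasts and 1066 in macrophages, and Ms4a1, Pax5 and Igll1 were on neither array. Both sums were mostly Blnk, with 1219 in osteoclasts, against 823 in macrophages. Blnk was thus brighter in osteoclasts before normalization and lower after it, at -0.24. Plasmacytoid dendritic cell markers, of another cell known for Tlr7 and Tlr9, summed to 1759 in osteoclasts and 2632 in macrophages, and 3 of 7 detected were 2-fold lower (2 at their bounds), 1 was higher; the brightest were Tcf4 (-1.26, with 0.34 at another probe) and Irf8 (-3.34), which macrophages express too. Dendritic cell markers were dim, at sums of 84.5 in osteoclasts and 248 in macrophages, with a median of -0.44 over 6 detected genes; Ccr7 was at -0.34, and Batf3 at least 10.5-fold lower. T and NK cell markers summed to 144 in osteoclasts and 151 in macrophages, with Cd3d, Cd3e, Cd3g and Ncr1 on neither array. Prf1, at -0.59, made up most of both sums, with 121 in osteoclasts, against 97.6 in macrophages. Nkg7 was at least 2.70-fold lower.

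Epidermal, muscle and fibroblast genes moved the opposite way to the receptors. Among all detected genes 11.5% were at least 2-fold higher. Of the detected markers, 7 of 9 epidermal, 5 of 10 muscle and 5 of 7 fibroblast genes were detected on the osteoclast array only. They entered through the array where they are higher, so their sign was nearly set by that rule. Epidermal markers summed to 21360.2 in osteoclasts, against 115 in macrophages, with Krt10 (36.5-fold higher) and Lor (at least 152-fold) as the brightest, and 8 of 9 detected were at least 2-fold higher. Skeletal muscle markers, led by Acta1 (at least 135-fold higher) and Atp2a1 (37.6-fold), summed to 11862 in osteoclasts, against 160.3 in macrophages, and 9 of 10 were at least 2-fold higher. Fibroblast markers, led by Dcn (at least 44.8-fold higher) and Thy1 (at least 4.24-fold), summed to 2057 in osteoclasts, against 39.9 in macrophages, with 5 of 7 at least 2-fold higher, or 4 at their bounds. Erythroid markers had a median of 0.12, with 1 of 5 detected genes at least 2-fold higher (Hba-a1, 4.63-fold) and 4 within 2-fold. Their sums were 10265 in osteoclasts and 5447 in macrophages, mostly Tfrc (0.25), a gene of many growing cells. How far RNA of other tissues lowers the share of macrophage-type transcripts on the osteoclast array was not tested.

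**Figure D3:**
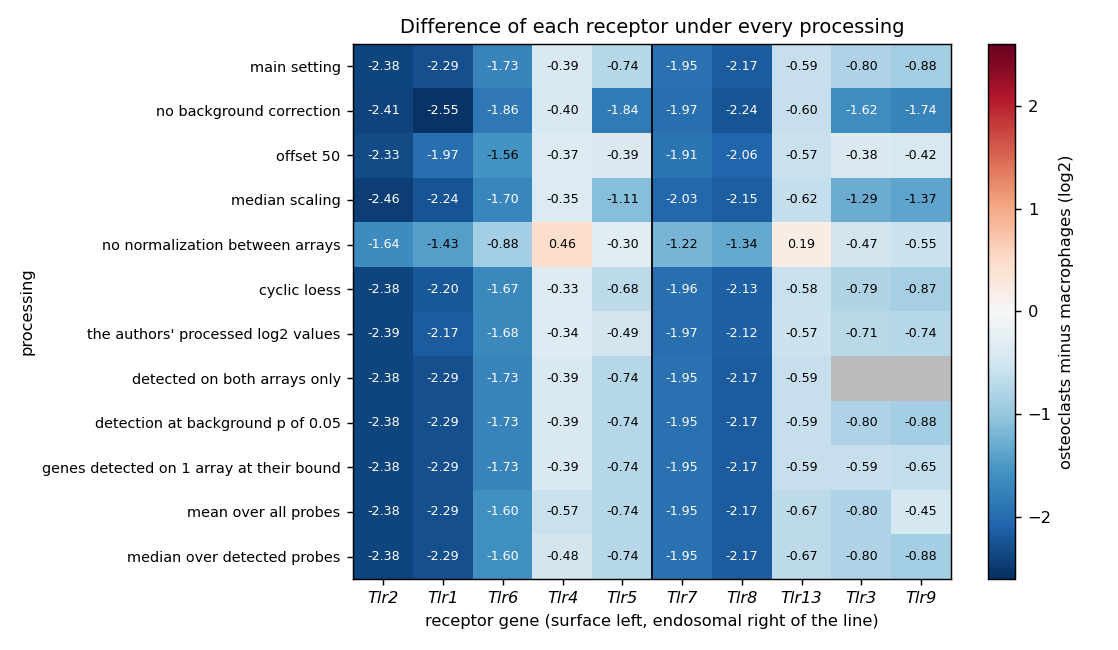
Difference (osteoclasts minus macrophages, log2) of the 10 receptors in columns under the main setting and 11 alternatives in rows; blue is lower and red higher in osteoclasts, and grey cells have no value because the gene was not detected on both arrays. Tlr1, Tlr2, Tlr7 and Tlr8 stay past -1 in every row, Tlr6 is at -0.88 without normalization, and Tlr4 and Tlr13 turn to 0.46 and 0.19 there. The median of all detected genes is 0.60 in that setting.

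The same grouping of receptors was seen in the authors' processed values. There the differences were -2.39 for Tlr2, -2.17 for Tlr1, -1.68 for Tlr6, -2.12 for Tlr8 and -1.97 for Tlr7, and between -0.74 and -0.34 for the other 5. The scaling shifts all genes at once: leaving out normalization moved the median of all detected genes by 0.64 and median scaling moved it by -0.17. Taken against the median of all detected genes in each of the 12 settings, Tlr2 ranged from -2.40 to -2.24, Tlr1 from -2.49 to -1.94, Tlr8 from -2.18 to -1.93, Tlr7 from -1.98 to -1.81 and Tlr6 from -1.79 to -1.48. On the same measure Tlr4 ranged from -0.55 to -0.14 and Tlr13 from -0.65 to -0.41. The dim genes moved most, Tlr5 from -1.77 to -0.35, Tlr9 from -1.67 to -0.39 and Tlr3 from -1.55 to -0.35.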

How the data were processed

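Per the labels' protocols, biotin-labelled cRNA was hybridised to Illumina bead arrays. The deposited intensities, 1 for each probe on each array, were not normalized, but a background had been subtracted, since 36.9% of osteoclast and 38.4% of macrophage values were below 0. The authors' processed table holds log2 values; across 5844 probes with an intensity above 200 on both arrays, its differences followed the log2 intensity ratio with slope 0.97, which sets scale and direction. Their medians were 5.05 for osteoclasts and 5.00 for macrophages, and the centring stays unknown. Scanner software: not given in the sources used here.

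Without detection p-values or control probes, background was estimated from the mode of each array (-5.33 with SD 5.40 for osteoclasts, -3.62 with SD 3.65 for macrophages), corrected by normexp, offset by 16 and quantile normalized (limma 3.58.1, R 4.3.3, Python 3.11.15). A single array per group limits the precision. Annotation gave 34885 probes 1 gene, 18 several and 10378 none, and 34807 matched RefSeq identifiers. Named were all 10 receptors, the 4 detected genes with the largest difference in each pathway list and the 2 brightest in each marker list. Background correction and normalization were tested on simulated data with known changes in probes well above background. Changes in dim probes, detection calls, bounds and gene lists were not covered there. Members and lists were chosen with earlier results of these data known.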

Additional observations from a re-analysis of the deposited data

How the results depend on the processing

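With 1 array per group no replicate could be left out. No paired analysis was possible because each group is 1 sample. Under 11 alternatives, Tlr1, Tlr2, Tlr7 and Tlr8 were at least 2-fold lower in all 11 and Tlr6 in 10. Without background correction 8 receptors were at least 2-fold lower, 4 of them endosomal, the endosomal median was -1.74, that of surface minus endosomal -0.12 (-0.85 in the main setting), that of partner genes -1.70, and 2072 of all genes were 2-fold lower, against 1067. This setting also has no offset and raises intensities below the detection limit to that limit. Median scaling likewise gave 8 receptors, 4 of them endosomal, and 1307 higher and 1750 lower genes (42.8% of calls higher, against 58.4%). Without normalization the family median was -0.72, the surface median -0.88, those of adaptors and kinases 0.053, restraining genes 0.53, endosomal proteases and transporters 0.23 and all genes 0.60, with 3838 higher and 374 lower genes (91.1% higher). With genes detected on both arrays only, the endosomal median was -1.95 and surface minus endosomal 0.21. Other alternatives moved no median by over 1.5-fold. Faint receptors are limited by background: a 2-fold difference of Tlr3, Tlr5 or Tlr9 is not resolved.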

Other observations

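The protein-coding gene next to Tlr6 also had a lower signal, at its detected probe. Fam114a1, which follows Tlr6 on chromosome 5 and overlaps its annotated span, had an intensity of 64.1 in osteoclasts, against 151 in macrophages, and a difference of -1.80, while Klf3 on the other side of Tlr1 differed by -0.68. Beside the other 2-fold lower receptors, Tmsb4x differed by -0.42, Prps2 by 0.17, Sfrp2 by -0.14 and Tmem131l by -0.70. The second Fam114a1 probe was detected on neither array. This gene was singled out after its value was seen, and whether a probe of either gene reads the other's transcript was not tested.

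The mouse genes Tlr11 and Tlr12, which are outside the 10 receptors and act on proteins of parasites, were at or near background. Tlr12 had an intensity of 4.08 in osteoclasts, where it was not above background, against 9.25 in macrophages, and Tlr11 was detected on neither array.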
